A study of Mus musculus with 6 samples.

Results

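The mitosis and spindle genes are 50 genes whose products carry a cell through division, from the kinases that start mitosis to the proteins that part the daughter cells. They were taken as a list of gene symbols, and each was read from the probe sets that carry its symbol alone on Affymetrix GeneChip mouse genome arrays, which measure RNA by hybridization. Of the 50 genes, 49 were measured, among 18193 named genes in all, and Ccnb1 was not analysed here. A gene with several probe sets is given by the one with the highest mean signal over the 6 arrays, and the other probe sets are described after the single genes.

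The arrays compared colon RNA of, by the paper's text, 3 control and 3 HDAC1/2 deficient mice, with 1 array for each replicate that the labels number. HDAC1/2 deficient mice carried floxed Hdac1 and Hdac2, the genes of a pair of histone deacetylases, and a villin-Cre transgene, whose promoter is active in the epithelium of the small intestine and colon. Control mice are labelled wild type, and all mice were untreated, fed a normal diet and, by the paper's text, 4 months of age. The labels give colonic epithelium as the source, whereas the extraction protocol describes total RNA of the colon, so that RNA of other cells of the wall may be part of each value. Values are log2 signals as deposited, and a gene passed the test at a limma p under 0.05 after Benjamini-Hochberg adjustment over 45037 probe sets.

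Mitosis is started by Cdk1 bound to its cyclins and is run by further kinases of the polo, Aurora and Nek families. Condensins and topoisomerase II compact the chromosomes, kinetochores attach them to the spindle, and the spindle checkpoint holds back the anaphase promoting complex until all are attached. Many of these genes are switched on together late in the cell cycle through CHR and CCAAT promoter elements, which are bound by the MuvB complex with Mybl2 and Foxm1 and by NF-Y. In the colon, dividing cells lie in the lower part of the crypts.

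Of the 49 measured genes, 42 were higher in HDAC1/2 deficient colon, none was lower and 7 did not pass, where 21.9% of all genes were higher and 28.4% lower (limma). At an unadjusted p under 0.05, 1 of the genes, Foxm1, was lower in the limma fit, and by the methods' t-test 1 gene, Ccnb2, was lower with or without adjustment. The share of all genes lower in these settings was not counted. The median log2 fold change over the 49 genes was 0.46, a 1.38-fold difference, against -0.02 over all genes. The rises were modest. The 42 genes ran from 0.26 to 1.02 on the log2 scale, 20 of them under 0.5, 14 from 0.5 to 0.75, 7 from 0.75 to 1, and 1, that of Plk1, past 2-fold, where 2.25% of all genes were more than 2-fold higher. The control and deficient arrays did not overlap in 44 genes that were higher, against 26.9% of all genes, and in Ccnb2 and Pttg1, which had lower values on every deficient array without passing the test, against 34.1% of all genes without overlap and lower. Cdc25b, Foxm1 and Bub3 overlapped between the groups. Bulk RNA cannot tell more dividing cells from more of these RNAs per dividing cell.

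The 3 deficient arrays were alike in these genes. Measured from each gene's control mean, the median over the 49 genes was 0.03, -0.03 and 0.00 on the log2 scale on the control arrays and 0.49, 0.48 and 0.47 on the deficient ones. The median SD per gene was 0.049 in control and 0.038 in deficient colon (n = 3 each), against 0.0666 and 0.0632 over all probe sets. These sets are unlike, since each gene is given by its brightest probe set, with none below percentile 48.6 of signal. Each limma p-value and standard error rests on the spread among 3 arrays per group, moderated toward the variance of all probe sets. Whether the spread among arrays is that between single mice is not known, given the sex-linked RNAs described below.

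**Figure D1:**
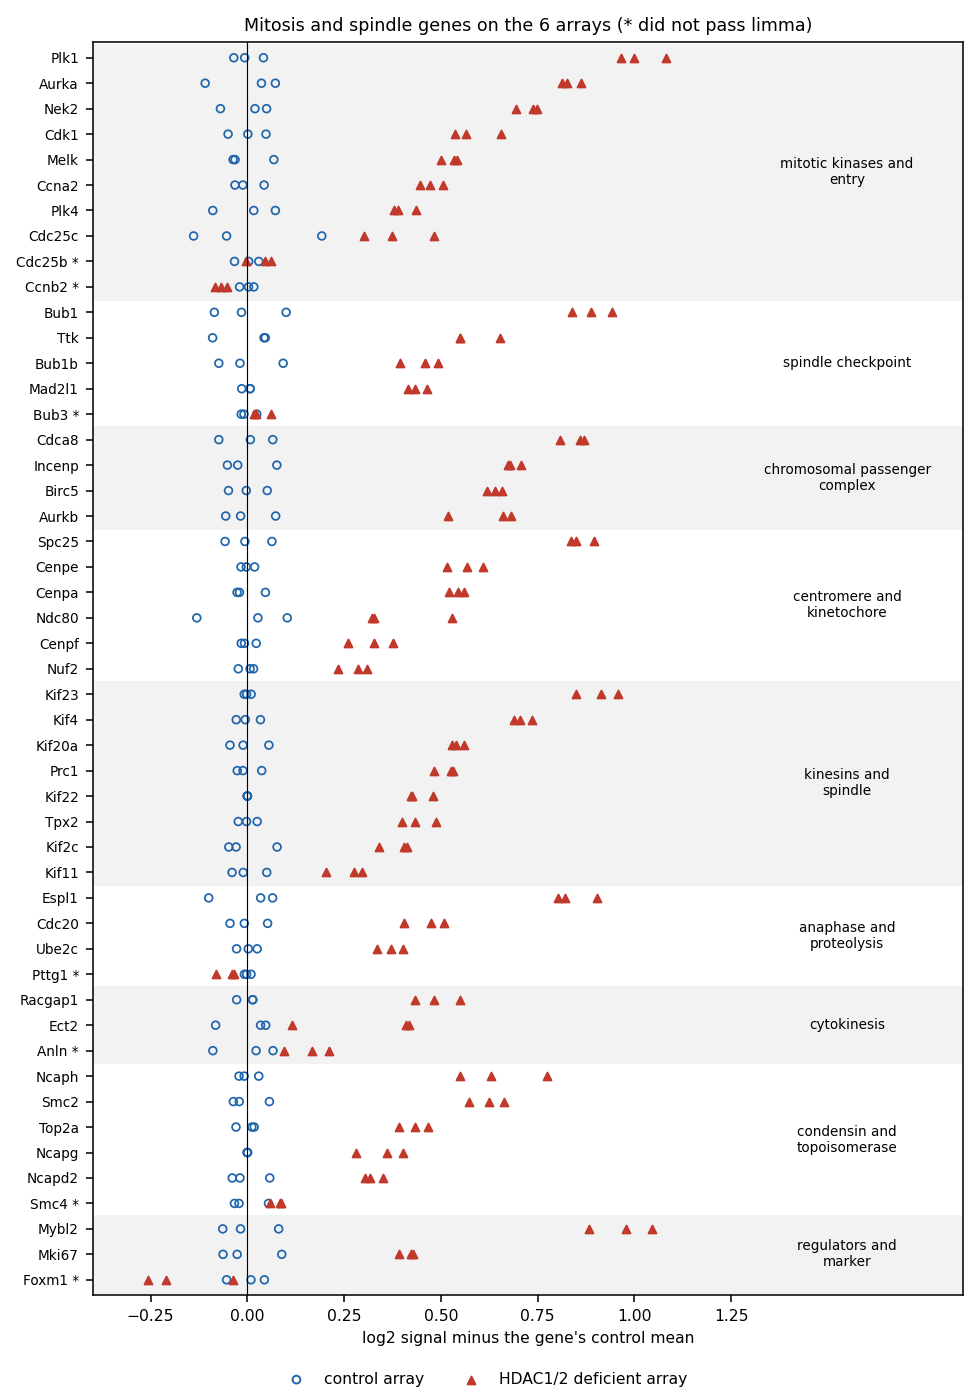
Log2 signal of each measured mitosis and spindle gene minus its control mean (horizontal axis) on the 3 control arrays (blue circles) and the 3 HDAC1/2 deficient arrays (red triangles), with genes in rows by role. In 44 of 49 genes every triangle lies to the right of every circle, and the 7 genes with a star did not pass limma.

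Other measures moved with the groups. Hdac1, the first deleted gene, ran from 10.53 to 10.60 in control and from 9.21 to 9.32 in deficient colon (log2 fold change -1.30). Hdac2, the second, did not pass (0.05) in the brightest of its 3 probe sets, which can match several transcripts. The other Hdac2 probe sets are not given here. The paper reports HDAC2 protein as depleted, with patchy staining left in the epithelium. The Hdac2 value thus does not show that the gene was left intact. The Y-linked Eif2s3y ran from 3.84 to 4.31 in control and from 8.22 to 8.49 in deficient colon (4.25), and Xist, made from an inactive X chromosome, from 12.81 to 12.88 and from 11.99 to 12.06 (-0.83). Each deficient array thus carried both RNAs, although the labels number 1 mouse for each array. How many mice gave RNA to each array is therefore not settled here, and the p-values may not measure the spread between mice. Sex-linked RNA went with the genotype, and the effects of sex and genotype cannot be told apart here. Among the promoter windows described next, that of Kif4 lies on chromosome X. Arrays correlated at 0.9984 to 0.9988 across probe sets within a group and at 0.9824 to 0.9828 between groups, and no scan batch is given in the sources used here.

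The promoters of 41 of the 49 measured genes were in the RefSeq promoter table (GRCm38.p6), which gives 250 bases before and 50 after each start. Aurkb, Ccna2, Cdc25c, Foxm1, Incenp, Kif20a, Smc4 and Tpx2 had no entry. The CHR element was searched as TTTGAA or TTCGAA, the CCAAT element as CCAAT and the E2F site as TTTCGCGC or TTTGGCGC, each on both strands, and no motif contains another. A CHR match was present in 31 of the 41 genes, or 75.6%, against 17.5% of 14452 genes on the array that have a window. CCAAT was present in 73.2% against 42.0%, and both elements in 68.3% against 7.05%. An E2F match was present in only 2 of the 41 genes, or 4.88%, against 1.45%. Of 45 S phase and DNA replication genes with a window, 24.4% held a CHR match, 60.0% CCAAT and 26.7% an E2F match. These shares are descriptions of the sequence and were not tested.

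CHR matches of the mitosis and spindle genes lay close to the start: 28 of 41 genes, or 68.3%, had one within 50 bases of it, against 4.62% of genes on the array, a distance chosen after the positions were seen. In 19 of the 41 genes, or 46.3%, the window held at least 2 CCAAT matches, against 14.9%. A CHR match was present in 27 of 36 genes that rose and in 4 of 5 that did not pass. With only 5 such genes, whether the elements divide the genes that rose from the others cannot be told. Mybl2, Ncaph, Birc5, Melk, Mad2l1, Plk4, Nuf2 and Pttg1 had no match to any of the 3 elements, and 7 of these 8 rose. In 9 of the 44 windows the annotated start lies more than 100 bases from the gene's own 5′ end.

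Promoters of 6 genes are printed to show where such matches lie, those of the 4 largest rises and of 2 genes that did not pass, among genes with 1 window that starts within 100 bases of the gene's 5′ end. Mybl2, which has the second largest rise and no match, was left out by this rule, since its window starts farther from that end. Each line gives the 120 bases before the start and the 30 from it, 5′ to 3′ on the strand of the gene, with CHR, CCAAT and their reverse complements in capitals. The stretches are chr7:122159315-122159464 on the plus strand for Plk1, chr9:61946770-61946919 on the minus strand for Kif23, chr2:127831830-127831979 on the minus strand for Bub1, chr2:69206184-69206333 on the minus strand for Spc25, chr9:22389177-22389326 on the minus strand for Anln and chr9:70421525-70421674 on the minus strand for Ccnb2.
Plk1: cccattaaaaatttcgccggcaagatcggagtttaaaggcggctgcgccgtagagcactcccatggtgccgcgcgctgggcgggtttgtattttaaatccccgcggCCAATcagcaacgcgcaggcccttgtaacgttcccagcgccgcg
Kif23: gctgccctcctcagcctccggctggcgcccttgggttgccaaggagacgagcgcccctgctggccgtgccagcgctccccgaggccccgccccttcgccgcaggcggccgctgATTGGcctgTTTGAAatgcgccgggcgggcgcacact
Bub1: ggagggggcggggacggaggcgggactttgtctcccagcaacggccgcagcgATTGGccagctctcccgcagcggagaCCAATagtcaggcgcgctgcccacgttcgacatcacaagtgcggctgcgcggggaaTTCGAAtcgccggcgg
Spc25: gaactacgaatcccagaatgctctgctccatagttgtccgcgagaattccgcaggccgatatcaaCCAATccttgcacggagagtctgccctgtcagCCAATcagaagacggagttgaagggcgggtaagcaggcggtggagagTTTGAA
Anln (not passed): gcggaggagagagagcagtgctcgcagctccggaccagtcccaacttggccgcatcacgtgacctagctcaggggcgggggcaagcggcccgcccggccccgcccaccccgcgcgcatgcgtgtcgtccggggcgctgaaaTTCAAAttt
Ccnb2 (not passed): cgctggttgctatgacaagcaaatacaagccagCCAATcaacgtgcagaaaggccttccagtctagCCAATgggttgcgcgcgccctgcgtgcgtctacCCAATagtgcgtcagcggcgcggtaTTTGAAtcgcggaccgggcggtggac
The CHR match of Plk1 begins 30 bases after the start, just past the end of its line. In Kif23, Bub1, Spc25 and Ccnb2 a CHR match follows the last CCAAT match within the line. Ccnb2, which did not rise, holds 3 CCAAT matches and a CHR match in its line, and Anln a CHR match and no CCAAT.

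**Figure D2:**
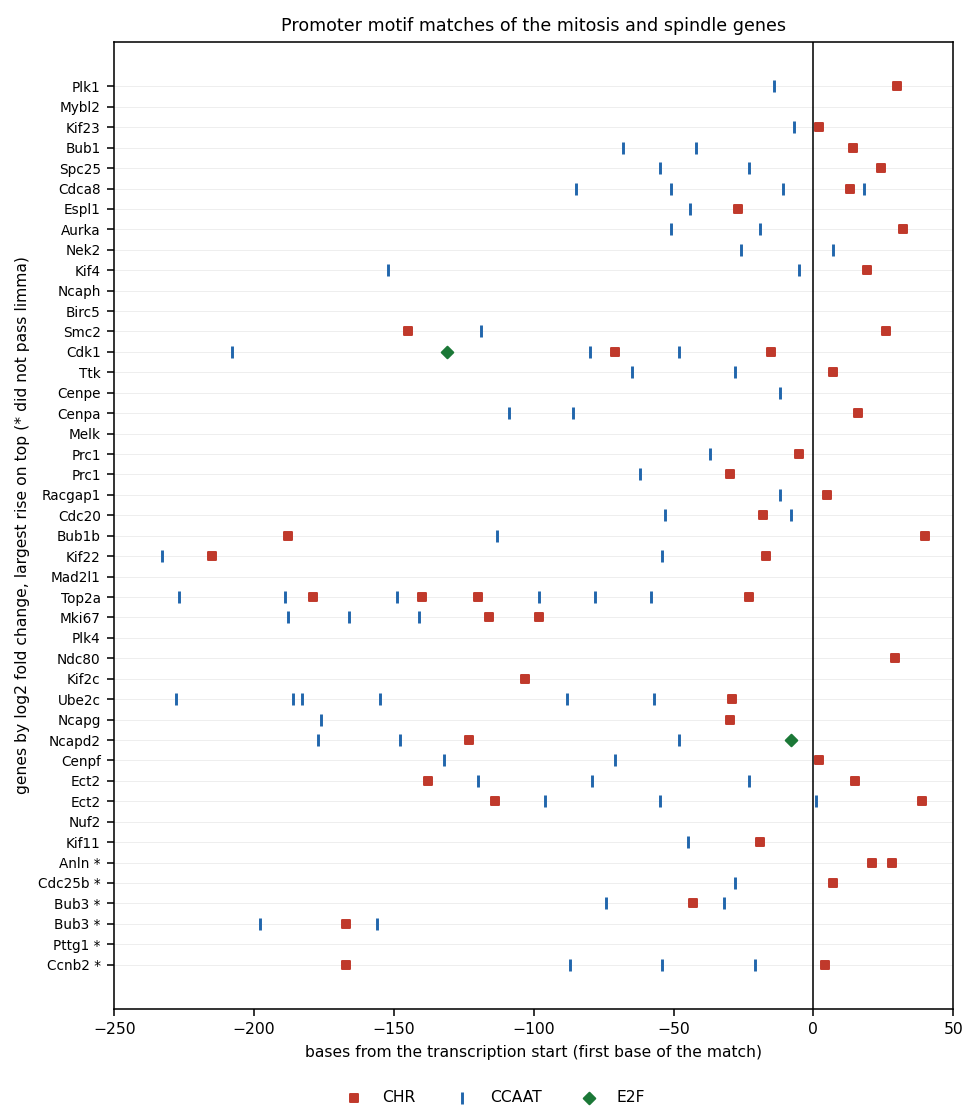
Positions of CHR (red squares), CCAAT (blue bars) and E2F (green diamonds) matches, in bases from the transcription start (horizontal axis), in the 44 promoter windows of 41 mitosis and spindle genes, ordered by log2 fold change. CHR matches gather around the start and CCAAT matches mostly before it, in genes that rose and in those with a star, which did not pass limma.

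Among the kinases and other genes of mitotic entry, 8 of 10 measured rose, with a median log2 fold change of 0.50 over the 10. Plk1 (probe set 1448191_at), the polo-like kinase needed for centrosome maturation and spindle assembly, rose most of all 49 genes, with log2 values of 9.24, 9.19 and 9.16 on the control arrays and 10.20, 10.28 and 10.17 on the deficient arrays (log2 fold change 1.02 with a standard error of 0.048, adjusted p = 3.60e-06 in limma). Aurka, the Aurora kinase of centrosomes and spindle poles, had values of 8.94, 8.80 and 8.98 on the control arrays and 9.73, 9.77 and 9.72 on the deficient arrays (log2 fold change 0.83 with a standard error of 0.056, adjusted p = 2.01e-05 in limma). For Nek2, a kinase that parts the centrosomes, they were 9.69, 9.58 and 9.66 on the control arrays and 10.38, 10.39 and 10.34 on the deficient arrays (log2 fold change 0.73 with a standard error of 0.047, adjusted p = 1.67e-05 in limma). In each of the 3 kinases the lowest deficient array was above the highest control array. Cdk1 (0.59), the kinase at the centre of mitotic entry, the kinase gene Melk (0.53), cyclin A2 (Ccna2, 0.47), Plk4 (0.40), which controls centriole duplication, and Cdc25c (0.39), a phosphatase that activates Cdk1, rose less. Cyclin B2 (Ccnb2), which shares with cyclin A2 the binding of Cdk1, had values of 10.32, 10.29 and 10.31 on the control arrays and 10.24, 10.25 and 10.22 on the deficient arrays (log2 fold change -0.07 with a standard error of 0.039, adjusted p = 0.217 in limma). Cdc25b, another Cdk1-activating phosphatase, had 8.34, 8.28 and 8.31 on the control arrays and 8.36, 8.31 and 8.37 on the deficient arrays (log2 fold change 0.04 with a standard error of 0.042, adjusted p = 0.563 in limma). Neither passed, and the deficient values of Ccnb2 were all slightly below the control values, while those of Cdc25b overlapped with them.

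Of 5 genes of the spindle checkpoint, which delays anaphase until every chromosome is attached, 4 rose, with a median log2 fold change of 0.45. The checkpoint kinase Bub1 had log2 values of 8.82, 8.63 and 8.70 on the control arrays and 9.60, 9.66 and 9.55 on the deficient arrays (log2 fold change 0.89 with a standard error of 0.059, adjusted p = 1.81e-05 in limma). Ttk, the Mps1 kinase that starts checkpoint signaling, had 8.03, 7.89 and 8.03 on the control arrays and 8.64, 8.53 and 8.53 on the deficient arrays (log2 fold change 0.58 with a standard error of 0.056, adjusted p = 1.12e-04 in limma). Bub1b, the BubR1 protein of the mitotic checkpoint complex, had 8.84, 8.73 and 8.67 on the control arrays and 9.24, 9.14 and 9.21 on the deficient arrays (log2 fold change 0.45 with a standard error of 0.056, adjusted p = 4.53e-04 in limma). All 3 were higher on each deficient array than on any control array, as was Mad2l1 (0.44), the Mad2 protein of the same complex. Bub3, the binding partner of Bub1 and BubR1, had 11.75, 11.76 and 11.79 on the control arrays and 11.83, 11.79 and 11.78 on the deficient arrays (log2 fold change 0.03 with a standard error of 0.040, adjusted p = 0.558 in limma). It overlapped between the groups in this probe set.

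All 4 genes of the chromosomal passenger complex, which corrects faulty attachments and acts again at cytokinesis, rose, and their median of 0.66 was the highest of the 9 role groups. Cdca8, which encodes borealin, had log2 values of 10.20, 10.14 and 10.06 on the control arrays and 11.01, 10.94 and 10.99 on the deficient arrays (log2 fold change 0.85 with a standard error of 0.050, adjusted p = 1.02e-05 in limma). Incenp, the scaffold of the complex, had 10.47, 10.34 and 10.37 on the control arrays and 11.07, 11.10 and 11.07 on the deficient arrays (log2 fold change 0.69 with a standard error of 0.048, adjusted p = 2.30e-05 in limma). Birc5, which encodes survivin, had 10.17, 10.12 and 10.22 on the control arrays and 10.83, 10.81 and 10.79 on the deficient arrays (log2 fold change 0.64 with a standard error of 0.044, adjusted p = 2.13e-05 in limma). Their kinase, Aurkb, rose by 0.62, so that the 4 subunits lay between 0.62 and 0.85.

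Of 4 genes of anaphase and proteolysis, 3 rose, with a median log2 fold change of 0.42. Espl1, the separase that cleaves cohesin, had log2 values of 8.29, 8.16 and 8.32 on the control arrays and 9.06, 9.16 and 9.08 on the deficient arrays (log2 fold change 0.84 with a standard error of 0.058, adjusted p = 2.14e-05 in limma). Cdc20, which activates the anaphase promoting complex, had 11.46, 11.40 and 11.36 on the control arrays and 11.88, 11.81 and 11.92 on the deficient arrays (log2 fold change 0.46 with a standard error of 0.048, adjusted p = 1.72e-04 in limma). Ube2c, the ubiquitin-conjugating enzyme of that complex, had 11.64, 11.58 and 11.61 on the control arrays and 11.98, 12.01 and 11.95 on the deficient arrays (log2 fold change 0.37 with a standard error of 0.042, adjusted p = 2.68e-04 in limma). Pttg1 encodes securin, the inhibitor of separase. Its values were 12.60, 12.59 and 12.61 on the control arrays and 12.57, 12.56 and 12.52 on the deficient arrays (log2 fold change -0.05 with a standard error of 0.039, adjusted p = 0.357 in limma), so that separase rose and its inhibitor did not pass.

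The 6 genes of centromere and kinetochore all rose, with a median log2 fold change of 0.47. Spc25, a subunit of the Ndc80 complex that grips microtubules, had log2 values of 9.01, 8.89 and 8.94 on the control arrays and 9.84, 9.78 and 9.79 on the deficient arrays (log2 fold change 0.86 with a standard error of 0.047, adjusted p = 7.47e-06 in limma). Cenpe, a kinetochore motor, had 8.80, 8.82 and 8.79 on the control arrays and 9.37, 9.32 and 9.41 on the deficient arrays (log2 fold change 0.56 with a standard error of 0.043, adjusted p = 3.57e-05 in limma). Cenpa, the histone H3 variant of centromeres, had 9.44, 9.37 and 9.37 on the control arrays and 9.94, 9.95 and 9.91 on the deficient arrays (log2 fold change 0.54 with a standard error of 0.042, adjusted p = 3.89e-05 in limma). Ndc80 (0.39) and Nuf2 (0.28) of the same complex and the kinetochore gene Cenpf (0.32) also rose. Spc24, the remaining subunit, which is outside the list and is named after its value was seen, rose by 0.68, so that the 4 subunits ranged from 0.28 to 0.86.

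All 8 genes of kinesins and other spindle proteins rose, with a median log2 fold change of 0.48. Kif23, the motor of centralspindlin at the spindle midzone, had log2 values of 8.59, 8.61 and 8.60 on the control arrays and 9.51, 9.56 and 9.45 on the deficient arrays (log2 fold change 0.91 with a standard error of 0.044, adjusted p = 4.27e-06 in limma). The chromosome-bound kinesin Kif4 had 8.80, 8.73 and 8.76 on the control arrays and 9.45, 9.47 and 9.50 on the deficient arrays (log2 fold change 0.71 with a standard error of 0.041, adjusted p = 9.29e-06 in limma). Kif20a, a midzone kinesin that brings the passenger complex to its place in anaphase, had 8.78, 8.68 and 8.72 on the control arrays and 9.27, 9.29 and 9.26 on the deficient arrays (log2 fold change 0.54 with a standard error of 0.044, adjusted p = 4.66e-05 in limma). None of the 3 overlapped between the groups. The midzone crosslinker Prc1 (0.51), the chromokinesin Kif22 (0.44), the Aurora A activator Tpx2 (0.44), the microtubule depolymerase Kif2c (0.39) and Kif11 (0.26), the motor that pushes spindle poles apart, also rose. Kif11 had the smallest rise of the 42 genes.

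Of 3 genes of cytokinesis, 2 rose, with a median log2 fold change of 0.31. Racgap1, the partner of Kif23 in centralspindlin, had log2 values of 8.56, 8.52 and 8.56 on the control arrays and 9.10, 8.98 and 9.03 on the deficient arrays (log2 fold change 0.49 with a standard error of 0.046, adjusted p = 1.02e-04 in limma). Ect2, the exchange factor that activates RhoA at the cleavage furrow, had 10.31, 10.18 and 10.30 on the control arrays and 10.68, 10.38 and 10.67 on the deficient arrays (log2 fold change 0.31 with a standard error of 0.088, adjusted p = 0.0234 in limma). Its second deficient array was near the controls, and the call was lost without control array 2 (limma adjusted p = 0.0753), deficient array 1 (0.0756) or deficient array 3 (0.0795). Ect2 also did not pass the methods' t-test, with or without adjustment. Anln, which encodes the contractile ring scaffold anillin, had 9.77, 9.66 and 9.81 on the control arrays and 9.96, 9.91 and 9.84 on the deficient arrays (log2 fold change 0.16 with a standard error of 0.056, adjusted p = 0.0612 in limma). It did not pass, although its groups did not overlap.

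Of 6 genes of condensin and topoisomerase, 5 rose, with a median log2 fold change of 0.39. Ncaph, a condensin I subunit, had log2 values of 9.74, 9.69 and 9.70 on the control arrays and 10.49, 10.26 and 10.34 on the deficient arrays (log2 fold change 0.65 with a standard error of 0.062, adjusted p = 1.12e-04 in limma). Smc2, an ATPase of the condensins, had 10.16, 10.08 and 10.06 on the control arrays and 10.76, 10.67 and 10.72 on the deficient arrays (log2 fold change 0.62 with a standard error of 0.047, adjusted p = 3.54e-05 in limma). Top2a, the topoisomerase II of dividing cells, had 10.66, 10.61 and 10.65 on the control arrays and 11.07, 11.11 and 11.03 on the deficient arrays (log2 fold change 0.43 with a standard error of 0.042, adjusted p = 1.23e-04 in limma). The condensin I genes Ncapg (0.35) and Ncapd2 (0.32) rose too. Smc4, the ATPase that pairs with Smc2, had 11.12, 11.04 and 11.03 on the control arrays and 11.15, 11.12 and 11.15 on the deficient arrays (log2 fold change 0.08 with a standard error of 0.043, adjusted p = 0.209 in limma). The paired ATPases thus differed in call, with Smc2 passing and Smc4 not, and the difference between them was not tested.

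The last 3 genes are regulators of this program and its best known marker. Mybl2, which encodes the activator B-Myb, had log2 values of 6.21, 6.31 and 6.17 on the control arrays and 7.11, 7.21 and 7.28 on the deficient arrays (log2 fold change 0.97 with a standard error of 0.060, adjusted p = 1.30e-05 in limma). Mki67, the gene of the proliferation antigen Ki-67, had 11.39, 11.36 and 11.51 on the control arrays and 11.84, 11.85 and 11.81 on the deficient arrays (log2 fold change 0.41 with a standard error of 0.051, adjusted p = 4.18e-04 in limma). Foxm1, the forkhead activator of the same genes, had 8.94, 8.98 and 8.88 on the control arrays and 8.73, 8.90 and 8.68 on the deficient arrays (log2 fold change -0.17 with a standard error of 0.065, adjusted p = 0.0807 in limma). Mybl2 had the second largest rise of the 49 genes and Foxm1 the lowest fold change. Without deficient array 2, which lay nearest to the controls, Foxm1 was lower (log2 fold change -0.23, limma adjusted p = 0.0130).

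The 49 genes were covered by 113 probe sets, of which 76 were higher, 1 was lower and 36 did not pass, where 18.8% of all probe sets were higher. Among the 78 with a mean signal at or above the median of all probe sets, 65, or 83.3%, were higher, with a median log2 fold change of 0.45. Of the 35 below it, 11 were higher and 1 lower, with a median of 0.08. Of 34 genes with at least 2 probe sets, 13 had all of them higher, 25 at least 2 and 33 at least 1, Pttg1 with 0 of 3 being the exception. The same shares over all genes with several probe sets, and over all probe sets above or below the median signal, were not counted. These counts thus have no matched baseline. The probe set that was lower was 1441889_x_at of Racgap1 (log2 fold change -0.15, limma adjusted p = 0.0260), the weakest in signal of the 113.

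In 4 of the 7 genes that did not pass, another probe set was higher. Anln had a second probe set at 0.57, Bub3 had 1 of 5 higher at 0.29, and Smc4 had 1 of 3 higher at 0.37. Foxm1 was divided, with probe set 1448833_at at -0.17, 1417748_x_at at 0.06, 1448834_at at 0.49 and 1437138_at at -0.03, of which 1448834_at alone passed. The 3 probe sets of Pttg1, at -0.05, -0.07 and -0.08, were close to each other. Ccnb2 and Cdc25b have 1 probe set each. Of the 49 genes, 12 are given by a probe set whose name ends in _s_at or _x_at, which can match several transcripts, and 10 of those 12 were higher. Without such probe sets 48 genes remained, of which 42 were higher, with Bub3 among them at 0.29.

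**Figure D3:**
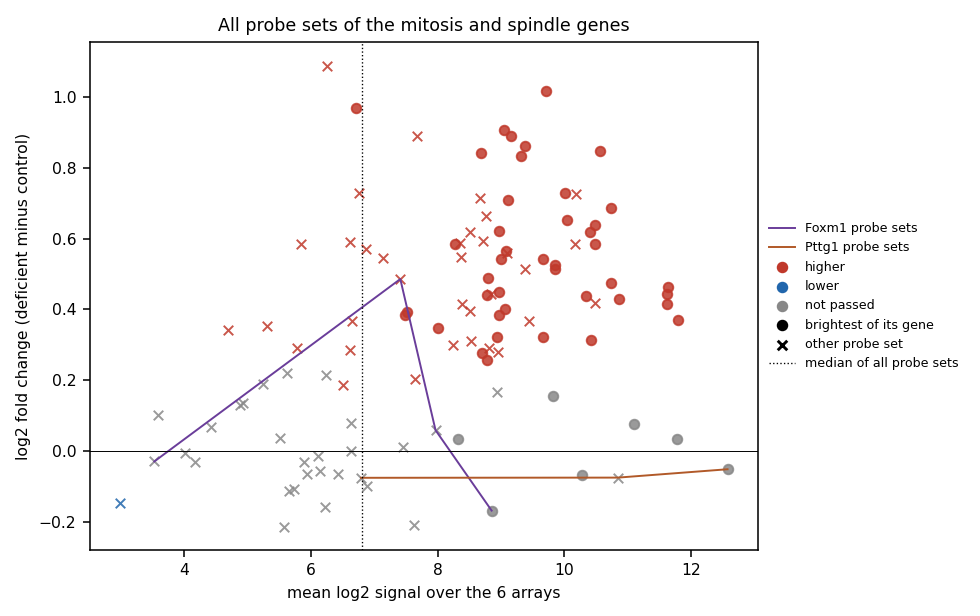
Log2 fold change (vertical axis) against mean log2 signal over the 6 arrays (horizontal axis) of the 113 probe sets of the 49 genes. Circles are the probe set that stands for its gene, crosses the others, red passed limma as higher, blue as lower and grey did not pass, and lines join the probe sets of Foxm1 and Pttg1. Of the 78 probe sets at or above the median of all probe sets (dotted line), 65 were higher, where 18.8% of all probe sets at any signal were higher.

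Other mitotic genes, outside the list, were more often higher than lower. Of 85 other genes of spindle, kinetochore, cohesin and anaphase promoting complex that were measured, 51, or 60.0%, were higher, 7, or 8.24%, lower and 27 did not pass, where 21.9% of all genes were higher and 28.4% lower, with a median log2 fold change of 0.19. Cks1b (1.21), a subunit that binds cyclin-dependent kinases, Cep55 (1.16), which acts in the final cut between daughter cells, and Tacc3 (0.90), which strengthens spindle microtubules, changed most. The 7 lower genes included the cohesin subunit genes Stag2 (-0.48) and Stag1 (-0.30), named after their values were seen, whereas Smc1a, Smc3 and Rad21 of the same complex did not pass, at 0.00, -0.02 and -0.01. Of 9 genes of the anaphase promoting complex and its activator Fzr1, 2 were higher and 1 lower, close to or below the shares of all genes just given.

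Genes of S phase and DNA replication had a median close to that of the mitosis genes. Of 56 measured, 49 were higher, none was lower and 7 did not pass, with a median log2 fold change of 0.49 and 5 genes past 2-fold. E2f2 (1.94), an E2F transcription factor, Rrm2 (1.65), a subunit of ribonucleotide reductase, and Cdc7 (1.52), a kinase that fires replication origins, rose most, each by more than Plk1 did. At an unadjusted p under 0.05 none was lower either, in the limma fit or by the methods' t-test, and 50 were higher in each. The share of all genes at an unadjusted p was not counted, so these counts have no baseline. D-type cyclins, their kinases and the CDK inhibitors were divided, with 9 of 15 higher and 6 lower (median 0.17). Among them the inhibitor genes Cdkn2a (0.69) and Cdkn2d (0.61) were higher and Cdkn2b (-0.66) was lower. Of 12 genes listed for the DREAM and MuvB complexes, 4 were higher, 4 lower and 4 did not pass. These shares of 33.3% each way lie near those of all genes, 21.9% higher and 28.4% lower. DREAM represses the mitosis genes in resting cells, whereas MuvB with Mybl2 and Foxm1 switches them on. A rise of MuvB genes is thus not a rise of repressors alone. Rbl2 (-0.53), which encodes the p130 pocket protein and is in the list before as well, was lower, and the MuvB genes Lin9 (0.52) and Lin54 (0.49) were higher. Differences between these lists were not tested.

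**Figure D4:**
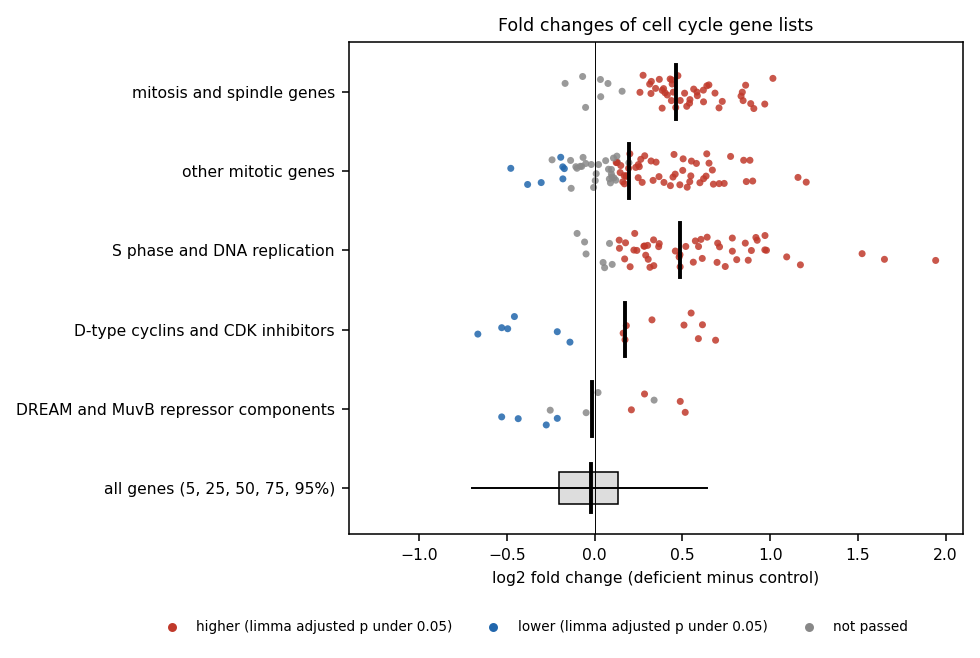
Log2 fold changes on the horizontal axis (deficient minus control, 3 arrays each) for the genes of 5 cell cycle lists, red where limma called the gene higher, blue lower and grey where it did not pass, with a black bar at the list's median. The median is 0.46 for mitosis and spindle genes, 0.19 for other mitotic genes and 0.49 for S phase genes, beside -0.02 for all genes, whose box spans the 25th to 75th and whose line spans the 5th to 95th percentile.

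Dividing cells of the colon wall include crypt cells and lymphocytes, and markers of several cell types differed between the groups along with the mitosis genes. The summed level of a list is given here as the log2 of its mean unlogged signal, and it was 9.98 to 10.03 on the control and 10.39 to 10.42 on the deficient arrays for the 49 mitosis and spindle genes. Of 8 epithelial markers, 3 were higher, 1 lower and 4 did not pass (summed level 14.09 to 14.10 against 14.12 to 14.13), with Vil1 at 0.35, Epcam at -0.16 and Cdh1 at -0.14, the last of which did not pass. Of 9 markers of the crypt base and its progenitors, 2 were higher, Olfm4 (3.84) and Cd44 (0.61), and 7 were lower, among them the stem cell genes Lgr5 (-0.47) and Ascl2 (-0.42) and the crypt transcription factor Sox9 (-0.57). Their summed level was 9.47 to 9.52 against 9.44 to 9.46. Of 7 surface colonocyte markers, 2 were higher, Krt20 (0.67) and Car1 (0.57), 3 were lower, Guca2a (-0.56) the most, and 2 did not pass, and their summed level was 13.64 to 13.65 against 13.67 to 13.68. Of all genes, 21.9% were higher and 28.4% lower. The shares were 37.5% and 12.5% of the epithelial, 22.2% and 77.8% of the crypt base and 28.6% and 42.9% of the surface markers. The 77.8% of crypt base markers that were lower is not near the 28.4% of all genes, and its cause was not tested. The shares of the epithelial and surface markers lie nearer to those of all genes. In lists this short they do not show a change of a cell type.

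Markers of B cells, T cells and macrophages rose with the mitosis genes, with 88.9%, 85.7% and 87.5% of them higher against 21.9% of all genes. Of 9 B cell markers, 8 were higher and 1 did not pass (summed level 7.51 to 7.53 against 8.73 to 8.75), led by Pou2af1 (1.72), Cd79b (1.65) and Ms4a1 (1.48). Of 5 markers of germinal centre B cells, the B cells that divide fastest, none was higher, 1 was lower, Rgs13 (-1.22), and 4 did not pass. Those 4 had fold changes above 0, Mybl1 (0.34), Gcsam (0.20), S1pr2 (0.13) and Bcl6 (0.05). Bulk RNA does not show which cells made the Rgs13 RNA. Lower were 20% of these markers and 28.4% of all genes. At an unadjusted p under 0.05, 2 of the 5 were higher in the limma fit and none by the methods' t-test, with no share of all genes counted at that threshold. The summed level of the 5 markers was 7.58 to 7.62 on the control and 7.46 to 7.54 on the deficient arrays. This lower level rests on Rgs13, the only 1 of the 5 with a negative fold change, so it does not show whether dividing B cells changed. Of 7 T cell markers, 6 were higher and 1 did not pass (7.05 to 7.16 against 7.76 to 7.83), with Cd3g at 1.62, Cd3d at 0.97 and Cd5 at 0.82. Of 8 macrophage markers, 7 were higher and 1 did not pass (9.94 to 9.98 against 10.70 to 10.72), with C1qa at 1.33, C1qb at 1.19 and Csf1r at 1.12. No marker is at 0 on this scale, which has no zero, and the part of the immune cells in the rise of the mitosis genes was not tested.

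Among markers of other tissues, all 6 smooth muscle markers were lower (13.20 to 13.21 against 12.82 to 12.88), by up to 0.69 in Des, with Smtn at -0.60 and Myh11 at -0.58. Of 6 fibroblast markers, 2 were higher, 3 lower and 1 did not pass (11.97 to 12.00 against 11.86 to 11.89), with Lum at -0.89, Col1a1 at -0.37 and Pdgfra at 0.35. That is 33.3% higher and 50% lower, where 21.9% of all genes were higher and 28.4% lower. All 7 pancreatic acinar markers were higher, with a median log2 fold change of 5.21, led by Cela2a (7.40), Cpb1 (7.24) and Cpa1 (5.64), and their summed level was 6.57 to 6.58 against 12.07 to 12.11. The part of these tissues in the rise of the mitosis genes was not tested either.

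**Figure D5:**
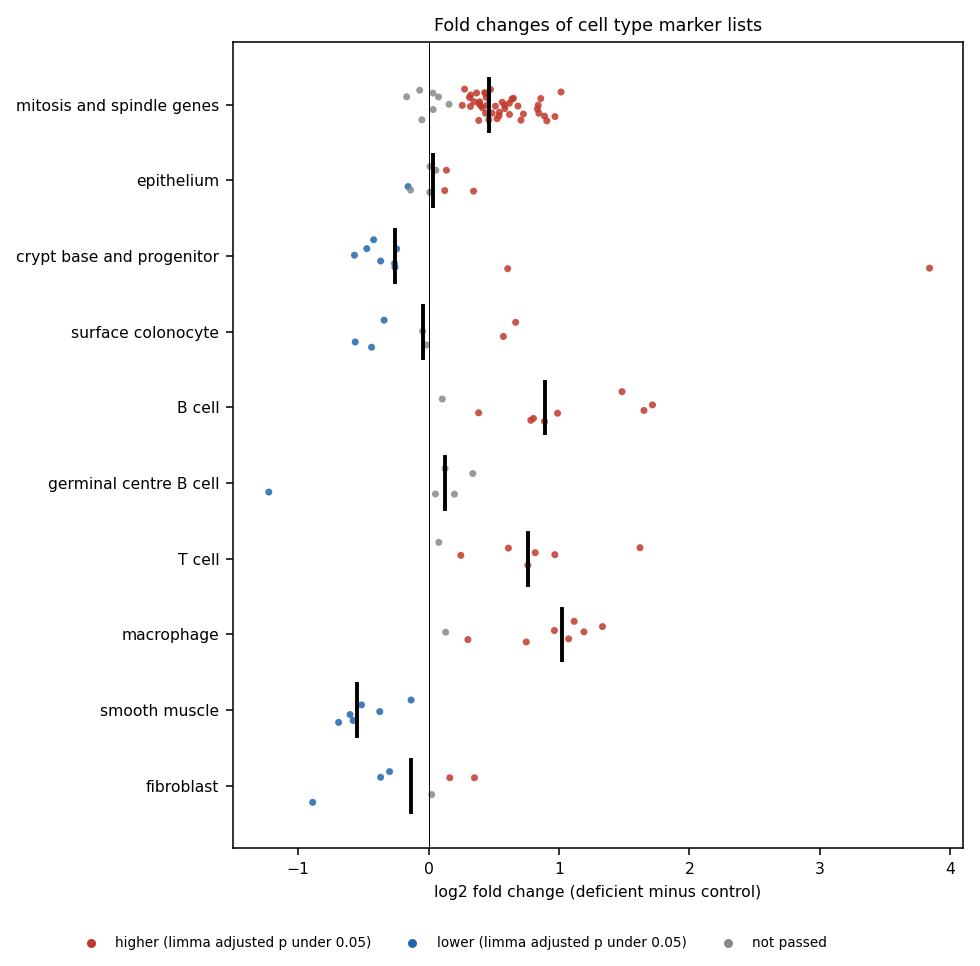
Log2 fold changes on the horizontal axis (deficient minus control, 3 arrays each) for the genes of 9 cell type marker lists beside the mitosis and spindle genes, red where limma called the gene higher, blue lower and grey where it did not pass, with a black bar at the median. B cell, T cell and macrophage markers have medians of 0.89, 0.76 and 1.02, epithelial markers 0.03 and crypt base markers -0.26, whereas the mitosis genes are at 0.46.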

How the data were processed

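By the paper, colon RNA of 3 control and 3 HDAC1/2 deficient mice was measured on Affymetrix arrays, and the labels give 1 replicate number per array. The authors deposited one log2 value per probe set and array, made with RMA (background correction and normalization over all arrays) in Flexarray, and RMA is also named in the submitters' processing notes. Sample titles give the groups and the replicate numbers.

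After 64 control probe sets were left out of 45101, a linear model of deficient against control, with no covariate, was fitted to 45037 probe sets by lmFit and eBayes of limma 3.58.1 (R 4.3.3), with Benjamini-Hochberg adjustment over all of them. The platform annotation used here gives 1 symbol to 34945 probe sets, several to 932 and none to 9160. Per role group, the 3 genes with the largest absolute change and every gene that did not pass are given with all array values, and per other list the 3 with the largest absolute change are named. Genes named beyond that were chosen after their values were seen. The members and the gene lists were chosen with earlier results of these data known. The role groups follow textbook functions.

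Alternatives were the methods' t-test (unequal variances) with and without adjustment, quantile normalization again, centring on array medians, a filter at the 40th percentile of signal, trend and robust eBayes, array weights, other choices of probe set, the replicate number as a block, and leaving out each array. The scripts were tested on simulated data. Promoters are RefSeq windows of GRCm38.p6. No array scan batch could be tested. Figures were drawn with matplotlib 3.10.9.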

Additional observations from a re-analysis of the deposited data

How the results depend on the processing

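The count of 42 mitosis and spindle genes higher stayed between 39 and 44 under every alternative but the use of the probe set with the weakest signal for each gene, which gave 28, and between 41 and 42 without any 1 array. The count of genes lower, 0, became 1 in several settings, namely Ccnb2 by the methods' t-test with adjustment or without, Foxm1 with only probe sets above the 40th percentile (limma adjusted p = 0.0479), with trend and robust eBayes (0.0249) or with array weights (0.0399), and Racgap1 with the weakest probe sets. Leaving out 1 array gave 0 to 1 genes lower, the 1 being Foxm1 without deficient array 2. The median log2 fold change of 0.46 was 0.39 with the mean of all probe sets, 0.28 with the weakest, and 0.46 to 0.49 without any 1 array. The S phase count of 49 became 32 with the weakest probe sets. Other mitotic genes higher numbered 43 to 49 without any 1 array, S phase genes 45 to 48, and D-type cyclin and CDK inhibitor genes 8 to 9.

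With the weakest probe set of each gene the sign turned in Nek2 (-0.11), Bub1b (-0.16), Spc25 (-0.063), Kif11 (-0.014), Kif23 (-0.0050), Kif2c (-0.11), Tpx2 (-0.063), Racgap1 (-0.15) and Top2a (-0.21), and with the mean of all probe sets in Foxm1 (0.087). The cause was not tested. Over 17 alternatives, 27 of 49 genes kept their call and sign in each, and 9 changed in a setting other than the weakest probe set. Those were Foxm1, Ccnb2, Ect2, Anln, Bub3, Smc4, Cdc25c, Ndc80 and Kif2c, the last 3 of which lost their call in 1 setting other than the weakest probe set (Cdc25c and Ndc80 by the methods' t-test after adjustment, Kif2c with the mean of all probe sets).

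Replicate numbers are shared between the groups, but same-numbered arrays deviated together by correlations of only -0.026 to 0.096, so the numbers were not taken as pairs. With the replicate number as a block, 42 genes were higher and 1, Foxm1, lower (limma adjusted p = 0.0489), and no other call of the 49 changed. The arrays numbered 1 and those numbered 2 correlated best with each other, and those numbered 3 did not. No detection call was used, so which probe sets lie above background is not known here, and 3 arrays per group limit the precision.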
